A study of Mus musculus with 35 samples.

Results

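The regions described here are the sites that KLF4 occupied at day 3 of reprogramming and at no later stage sampled in serum. They were chosen by their KLF4 peaks: peaks of 8 KLF4 libraries from day 3, day 6, day 9 and embryonic stem cells (ESCs) were merged wherever they shared at least 1 bp, and a merged region was kept when it held a peak in both day 3 libraries and in none of the 6 others. This gave 2279 of 72197 merged regions, or 3.16%. The regions were therefore selected on presence at day 3 and absence later, and neither is a result. What the choice did not use is the acetylation of histone H3 at lysine 27 (H3K27ac) in 12 libraries, KLF4 in 2 further ESC libraries, the position of the regions and their sequence.

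KLF4 is a zinc finger transcription factor that binds GC-rich and CACCC-type sequences. With OCT4, SOX2 and MYC it turns fibroblasts into induced pluripotent stem cells, and it also acts in epithelial differentiation. H3K27ac marks active enhancers and promoters, so its loss at a fibroblast enhancer and its gain at a stem cell enhancer are common readouts of the change of identity. Factors expressed from a transgene meet fibroblast chromatin first, and the sites they occupy early need not be the sites they occupy once pluripotency is established.

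Mouse embryonic fibroblasts (MEFs) came from C57BL/6 x 129 animals with a polycistronic OKSM cassette (Oct4, Klf4, Sox2, c-Myc) at Col1a1 and the doxycycline-controlled activator M2rtTA at Rosa26. Both alleles were present in the MEFs and at day 3, day 6 and day 9. The MEFs of both H3K27ac libraries are labelled as unsorted and without doxycycline, whereas an input library of MEFs, not analysed here, is labelled with it. From the start of induction the cells grew in ESC medium that held ascorbic acid (50 µg/ml) and the inducer doxycycline (1 µg/ml). Day 3 cells were collected as an unsorted bulk, whereas cells of day 6 and day 9 were sorted for the surface marker SSEA1, so time and sorting cannot be told apart between day 3 and the later days. ESCs were the line V6.5 (C57BL/6 x 129), without the cassette, in ESC medium with serum on irradiated feeder cells, and 2 further KLF4 libraries came from V6.5 cells with the inhibitor pair called 2i (1 µM MEK inhibitor and 3 µM GSK3 inhibitor). KLF4 was assayed in 2 libraries each of day 3, day 6, day 9 and serum ESCs. No KLF4 library of MEFs is among the samples, so KLF4 before induction is not known here. H3K27ac was assayed in 2 libraries each of MEFs, day 9 and ESCs and 3 each of day 3 and day 6. The labels assign libraries to batches. H3K27ac of MEFs and ESCs comes from batch DG-3458 alone and that of day 9 from EA-3702 alone, while day 3 and day 6 have libraries of both. KLF4 of day 3 and day 6 comes from EA-3702 and DG-4040, and that of day 9 from EA-3702 alone. KLF4 of serum ESCs comes from EA-2697 and EA-2643, which hold no other stage. For KLF4, serum ESCs and batch therefore cannot be told apart.

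Peak lists were deposited without read counts, so the sequencing depth is unknown and a missing peak means only that no peak was listed. The lists held 17493 to 88347 H3K27ac peaks and 21129 to 34640 KLF4 peaks. The labels were checked against H3K27ac at gene lists. In both ESC libraries 18 of 18 pluripotency genes had H3K27ac in the gene or within 2.5 kb of it, against 6 of 18 in both MEF libraries. Of 20 mesenchymal and fibroblast genes, 19 had it in both MEF libraries, 17 in all 3 day 3 libraries, 8 in all 3 day 6 libraries, 11 in both day 9 libraries and 12 in both ESC libraries.

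Of the 2279 regions, 51 overlapped a promoter window, here the 250 bases before to 50 bases after a RefSeq transcription start (GRCm38.p6, the reference behind mm10). These 51 regions touched 58 windows of 55 genes, among 21045 windows available for 17274 of 21631 protein-coding genes. All 72197 merged regions touched 10018 windows, and the 1661 regions bound at days 3, 6 and 9 and not in ESCs touched 78. The share of all merged regions that overlap a window was not counted. The stretches below are the parts of such windows that lie inside a day 3 region. The first 4 are the best ranked by KLF4 with at least 150 bases covered and the KLF letters GGGNGTGG on either strand, shown because they are the places where region and motif meet. The last is the best ranked window that is covered whole and lacks these letters. Capitals mark the KLF letters or their reverse complement.
Clip4 (chr17:71781049-71781325, plus strand): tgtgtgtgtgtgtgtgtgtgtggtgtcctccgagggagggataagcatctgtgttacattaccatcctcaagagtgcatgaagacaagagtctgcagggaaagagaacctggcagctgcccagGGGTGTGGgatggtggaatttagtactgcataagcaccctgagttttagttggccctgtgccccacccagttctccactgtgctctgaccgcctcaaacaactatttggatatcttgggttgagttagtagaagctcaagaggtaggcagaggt
Gda (chr19:21472612-21472911, minus strand): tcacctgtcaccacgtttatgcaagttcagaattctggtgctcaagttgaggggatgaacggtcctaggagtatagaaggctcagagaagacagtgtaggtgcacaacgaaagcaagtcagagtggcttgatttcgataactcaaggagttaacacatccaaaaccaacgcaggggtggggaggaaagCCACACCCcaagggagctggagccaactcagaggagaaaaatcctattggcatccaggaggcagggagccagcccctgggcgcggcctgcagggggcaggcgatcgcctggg
Ccdc9b (chr2:118762612-118762911, minus strand): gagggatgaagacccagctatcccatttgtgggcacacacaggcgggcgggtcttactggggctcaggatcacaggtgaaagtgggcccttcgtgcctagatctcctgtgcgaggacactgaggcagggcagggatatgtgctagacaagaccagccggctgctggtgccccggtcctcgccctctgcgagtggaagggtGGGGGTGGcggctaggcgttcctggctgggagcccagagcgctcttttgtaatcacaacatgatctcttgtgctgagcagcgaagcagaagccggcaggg
Bcl11a (chr11:24080445-24080744, plus strand): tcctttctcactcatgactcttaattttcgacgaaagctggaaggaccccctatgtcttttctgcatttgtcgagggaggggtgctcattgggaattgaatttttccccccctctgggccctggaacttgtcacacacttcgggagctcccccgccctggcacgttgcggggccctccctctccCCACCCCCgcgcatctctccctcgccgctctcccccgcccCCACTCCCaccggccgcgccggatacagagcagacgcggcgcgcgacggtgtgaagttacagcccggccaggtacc
Prickle1 (chr15:93595853-93596152, minus strand): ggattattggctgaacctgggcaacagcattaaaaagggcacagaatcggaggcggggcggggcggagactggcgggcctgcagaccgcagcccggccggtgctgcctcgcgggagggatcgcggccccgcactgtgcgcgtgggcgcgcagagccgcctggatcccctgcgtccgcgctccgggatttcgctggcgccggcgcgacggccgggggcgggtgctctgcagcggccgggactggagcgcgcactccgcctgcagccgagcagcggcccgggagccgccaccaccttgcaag

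Gda, which encodes guanine deaminase, carried the reverse complement of the KLF letters once, and H3K27ac covered this region in 2 of 2 MEF libraries, 2 of 3 day 3 libraries and none of the 7 later ones. Clip4, a microtubule-binding protein gene of the CAP-Gly family, carried the letters once and its region had no H3K27ac in any of the 12 libraries. Bcl11a, a zinc finger repressor gene, held them at 2 places. Its region had no H3K27ac in the MEF libraries and had it in 3 of 3 day 3, 3 of 3 day 6, 2 of 2 day 9 and 2 of 2 ESC libraries. Prickle1, a planar cell polarity gene, had H3K27ac in 2 of 2 MEF, 3 of 3 day 3, 3 of 3 day 6, 2 of 2 day 9 and 1 of 2 ESC libraries without the letters.

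The KLF letters occurred in 11 of 58 windows (19.0%, Wilson 95% interval 10.9 to 30.9), against 19.6% of all 21045 windows and 26.7% of the 10018 windows met by any merged KLF4 region. In the windows met by regions that were bound in all 8 libraries the share was 37.2% (1017 of 2735). The AP-1 letters TGANTCA stood in 7 of 58 windows, or 12.1% with an interval of 5.97 to 22.9, beside 7.04% of all windows and 4.10% of those met by any merged region. The TEAD letters GGAATG stood in 10 windows (17.2%, interval 9.64 to 28.9), beside 13.5% and 11.1% of the same backgrounds. The ETS letters CCGGAAG stood in 5 (8.62%, interval 3.74 to 18.6), beside 11.7% and 19.0%. The remaining motifs rest on very few windows. The octamer ATGCAAAT stood in 3 (5.17%, interval 1.77 to 14.1, beside 1.68% and 1.58%). In windows met by regions bound at days 3, 6 and 9 and not in ESCs it stood in 10 of 78 (12.8%). The E-box CACGTG stood in 1 of 58 (1.72%, interval 0.305 to 9.14, beside 7.91% and 10.8%). The RUNX letters TGTGGTTT stood in 2 (3.45%, interval 0.951 to 11.7, beside 1.62% and 0.829%). Both strands were searched, and none of the 7 motifs contains another. A match is a run of letters and not a measured binding site. These counts are over whole windows. Inside the part of a window that a region covers, the KLF letters stood in 7 of the 58. Nearly all of the 2279 regions lie outside these windows, and their sequence was not analysed here.

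At day 3 the regions were ordinary to weak KLF4 peaks. These values chose the regions or come from the same lists and are given as a description. The median deposited −log10 p of the strongest peak in a region was 6.17 in the day 3 library of batch EA-3702 (quartiles 4.15 and 9.22) and 3.96 in that of batch DG-4040 (3.23 and 5.25). The median fold enrichment over background was 4.32 and 2.93. In the ranking of each list from strongest to weakest the median region stood at 52.3% and 56.5% of the list, and 593 regions (26.0%) had a q-value of at most 0.01 in both libraries. Regions bound in both libraries of days 3, 6 and 9 and in no ESC library, 1661 in number, had medians of 14.8 and 7.40 in the same 2 libraries, and 71.9% of them reached that q-value in both.

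Just outside the choice, 1574 regions had peaks in both day 3 libraries and in exactly 1 of the 6 later ones. Their median −log10 p was 7.19 and 4.49, close above the 6.17 and 3.96 of the chosen regions. For 636 of the 1574 the later peak was in the day 6 library of batch DG-4040 and for 409 in that of batch EA-3702. On the other side, 15659 regions had a peak in only 1 day 3 library and none later, with medians of 4.14 and 3.23. A later KLF4 peak lay within 1 kb of 272 of the chosen regions (11.9%) and within 10 kb of 1156 (50.7%), beside 14.4% and 46.5% of those 15659 regions. The chosen regions had a median width of 389 bp, against 585 bp for the regions bound from day 3 to day 9.

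**Figure D1:**
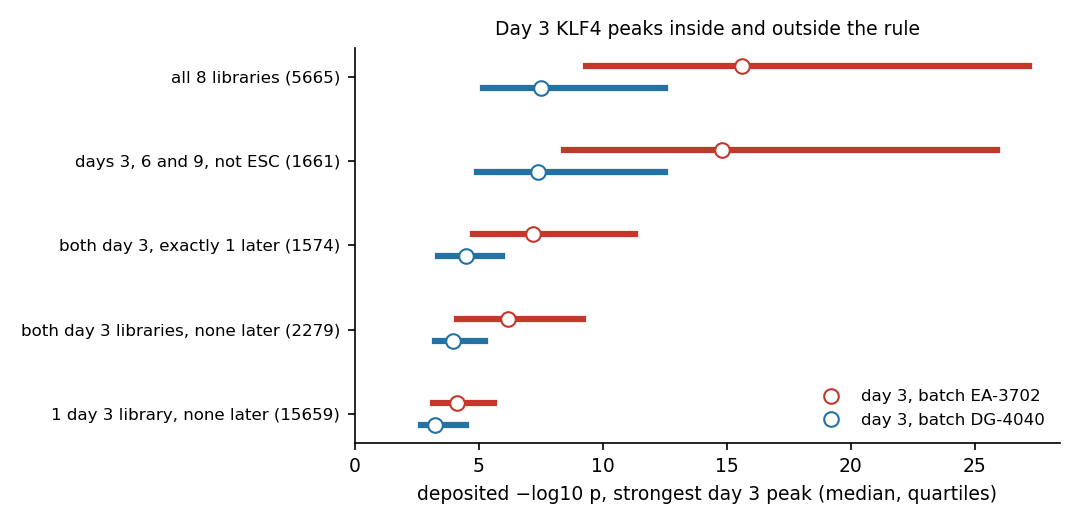
The horizontal axis is the deposited −log10 p of the strongest day 3 KLF4 peak in a region, with the median as a circle and the quartiles as a bar for each of the 2 day 3 libraries. The regions of day 3 alone, with medians of 6.17 and 3.96, sit between those of 1 day 3 library (4.14 and 3.23) and those with 1 later peak (7.19 and 4.49).

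Of the 15 regions with the best mean rank in the 2 day 3 lists, 7 lay inside a protein-coding gene, 11 had H3K27ac in all 3 day 3 libraries (beside 22.7% of all merged regions) and none had it in all 3 day 6 libraries (beside 14.3%). Their KLF4 values are those that ranked them. The best ranked lay on chromosome X (99396068 to 99396606), 8725 bp from the long noncoding RNA gene Gm14812 and 69128 bp from Pja1, a ubiquitin ligase gene. Its −log10 p was 35.4 and 17.3, and it had H3K27ac in none of the 12 libraries. The region within Ptpn3 (chr4:57306192-57306798), a protein tyrosine phosphatase gene, had −log10 p of 30.2 and 20.4. H3K27ac covered it in 3 of 3 day 3 libraries, 1 of 2 day 9 libraries and no other.

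Rhobtb1 held the third region (chr10:69156788-69157884), 1097 bp wide. Its −log10 p was 26.0 and 18.8, the nearest later KLF4 peak was 55081 bp away, and H3K27ac covered it in 2 of 2 MEF and 3 of 3 day 3 libraries and in none of day 6, day 9 and ESC. The fourth lay in Sybu (chr15:44733515-44734094), whose product syntabulin links cargo to kinesin motors. It had the highest −log10 p of the 15 in batch EA-3702, 49.5, with 11.2 in DG-4040, and H3K27ac in 3 of 3 day 3 libraries alone. Map4k3, a gene of the kinases upstream of JNK, held a region (chr17:80685918-80686600) with −log10 p of 44.2 and 9.74 and with H3K27ac in 2 of 2 MEF, 3 of 3 day 3 and 2 of 2 day 9 libraries but in none of 3 at day 6.

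The other strong regions were less often near coding genes. One lay 16419 bp from Gm51814 and 30449 bp from Tnfaip3, the gene of the NF-κB inhibitor A20, with −log10 p of 20.1 and 12.5. Its H3K27ac ran as at Map4k3, in 2 of 2 MEF, 3 of 3 day 3, none of 3 day 6, 2 of 2 day 9 and none of 2 ESC libraries. The region next to Gm30525, 8433 bp from the heat shock gene Hspa4, was acetylated in 2 of 2 MEF and 3 of 3 day 3 libraries and in 1 ESC library. Those at Gm6975 and within Tm9sf4 had H3K27ac in 2 of 3 day 3 libraries and in no MEF library, and the latter also in 1 day 6 library. The region inside the T cell receptor delta locus Tcrd had none in any of the 12 libraries. None of the 15 had a KLF4 peak in a 2i library.

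H3K27ac was most frequent at the regions in MEFs and at day 3, less frequent at day 9, and least frequent at day 6 and in ESCs. A peak overlapped 39.1% and 39.0% of the 2279 regions in the MEF libraries. The day 3 libraries gave 50.5% (batch EA-3702), 40.3% and 34.2% (both DG-3458). The day 6 libraries gave 16.2% (EA-3702), 9.04% and 8.25% (both DG-3458). Day 9 had 30.3% and 31.1%, and ESCs had 14.7% and 14.4%. Thus the day 6 and ESC libraries did not overlap those of MEF, day 3 or day 9, the ESC libraries lay inside the range of day 6, and the MEF libraries inside that of day 3.

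The share differed between stages (F = 20.3, exact permutation test over the 12 libraries, two-sided, p = 0.00212, adjusted over 7 tests 0.00742). The F was 102 within batches, 40.3 without the day 3 H3K27ac library of batch EA-3702 and 33.9 without that of replicate 2 in batch DG-3458. It was 11.1 with an overlap of at least 50% of the shorter interval. With 200 bp about the midpoint of each merged region it was 11.3, and with KLF4 peaks of 200 bp 11.8. The mean was 39.0% ± 0.031 (SD, n = 2) in MEFs, 41.6% ± 8.22 (n = 3) at day 3, 11.2% ± 4.40 (n = 3) at day 6, 30.7% ± 0.558 (n = 2) at day 9 and 14.5% ± 0.155 (n = 2) in ESCs. Day 6 minus day 3 was −30.5 percentage points, with every day 6 library under every day 3 library (exact permutation p = 0.1, the smallest that 3 against 3 libraries allow, adjusted 0.175). Day 9 minus day 6 was 19.5 points (exact permutation p = 0.1, the smallest possible, adjusted 0.175). ESC minus MEF was −24.5 points (exact permutation p = 0.33, the smallest with 2 against 2, adjusted 0.389), and day 3 minus MEF was 2.61 points (exact permutation p = 0.8, adjusted 0.8). These sizes depended on the day 3 KLF4 library of batch EA-3702. With regions chosen without it, day 6 minus day 3 was −9.35, day 9 minus day 6 was 9.59 and ESC minus MEF was −8.91 points. These pairwise differences cannot pass a threshold of 0.05 in this design.

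Day 6 lay under day 3 in both batches: the difference was −34.2 points in EA-3702, with 1 library each, and −28.6 points in DG-3458, between 37.2% and 8.64%. Day 3 minus MEF was −1.8 points within DG-3458, the only batch with MEFs. Day 9 minus day 6 was 14.5 points within EA-3702. The H3K27ac lists differed in length. Day 6 lists, with the lowest shares, held 17493 to 22462 peaks, day 3 lists 41471 to 50836, and day 9 lists 43974 and 45506. The MEF lists held 88070 and 88347 and the ESC lists, with nearly the lowest shares, 81971 and 81231. With the 17493 strongest peaks of every library, the MEF share was 19.1% ± 0.310 (SD, n = 2), the day 3 share 25.4% ± 5.10 (n = 3), the day 6 share 9.58% ± 2.93 (n = 3), the day 9 share 12.5% ± 0.031 (n = 2) and the ESC share 6.34% ± 0.155 (n = 2). Every day 6 library was again under every day 3 library, and ESCs had the lowest share. Day 9 minus day 6 was then 2.90 points (exact permutation p = 0.4), and the day 9 libraries lay inside the day 6 range.

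**Figure D2:**
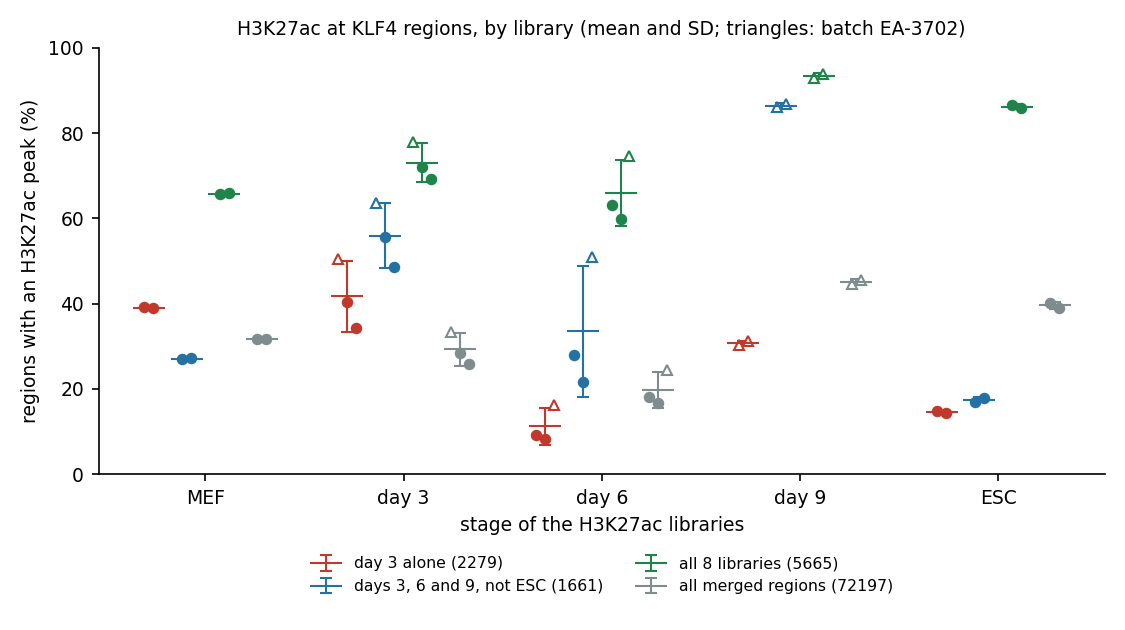
The vertical axis is the percent of regions overlapped by an H3K27ac peak, with 1 point per library, the mean as a dash and the SD as a bar, for regions of day 3 alone, regions bound from day 3 to day 9, regions bound in all 8 libraries and all merged regions. The regions of day 3 alone exceed all merged regions in MEFs (39.0% against 31.7%) and at day 3 (41.6% against 29.3%) and lie under them at day 6, day 9 and in ESCs, though with equally long H3K27ac lists the MEF values are 19.1% against 19.9%.

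Set beside all 72197 merged regions, the regions of day 3 alone lay above them at the early stages and under them later, but the sign in MEFs and the size at day 6 depended on the setting. In the 2 MEF libraries their share was 7.42 and 7.33 points higher than that of all merged regions, and at day 3 it was 17.1, 11.7 and 8.36 points higher. The difference was −8.98, −8.4 and −8.14 points in the day 6 libraries, −14.3 and −14.4 in those of day 9, and −25.6 and −24.6 in those of ESCs. With equally long H3K27ac lists the MEF shares were 19.1% and 19.9%, so the difference in MEFs turned, while the day 3 shares were 25.4% and 20.5%. Away from gene ends, by more than 2.5 kb, the regions of day 3 alone and all merged regions had 35.5% and 19.4% in MEFs, 39.3% and 19.4% at day 3, but 7.71% and 9.23% at day 6. Regions bound at day 9 alone, 1483 in number, lay above all merged regions in the day 9 libraries (51.4% and 45.0%). This order turned with equally long H3K27ac lists (23.4% and 29.2%) and within 2.5 kb of a gene end (63.3% and 71.8%). The regions of day 9 alone lay under all merged regions in MEFs (8.53% and 31.7%) and in ESCs (12.7% and 39.6%). They also lay under them in the libraries of day 3 (4.99% and 29.3%) and day 6 (2.79% and 19.7%). With the full lists this order was thus opposite to that of the regions of day 3 alone in MEFs and at days 3 and 9. It was the same at day 6 and in ESCs. With equally long H3K27ac lists the order was opposite at day 3 only. Regions of day 9 alone and of day 3 alone then both lay under all merged regions in MEFs (3.07% and 19.1% against 19.9%). The same held at day 9 (23.4% and 12.5% against 29.2%).

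The contrast with the sites that KLF4 held from day 3 to day 9 depended on the stage. In MEFs the regions of day 3 alone had H3K27ac more often, by 12.1 and 11.9 points, where the longer-held regions had a share of 27%. With equally long H3K27ac lists the mean difference in MEFs was 7.17 points. At day 3, day 6 and day 9 the regions of day 3 alone had H3K27ac less often. The difference was −13.1, −15.4 and −14.3 points in the day 3 libraries, and −34.6 (batch EA-3702), −19.0 and −13.4 (both DG-3458) in those of day 6. It was −55.7 points in both day 9 libraries, in which 86.0% and 86.8% of the longer-held regions were acetylated. In ESCs, for which neither set has a listed KLF4 peak, it was −2.38 and −3.44 points, and its sign turned with equally long H3K27ac lists (a mean of 1.07) and with 200 bp about each midpoint (12.6% against 11.8%). The longer-held regions are wider, and the 200 bp window also narrowed the contrast at day 3, to 31.9% ± 9.96 against 34.2% ± 12.6 (SD, n = 3), and at day 6, to 8.63% ± 3.40 against 17.3% ± 11.9 (n = 3). At day 9 it was 26.5% ± 0.248 against 77.6% ± 0.0426 (n = 2), and in MEFs 35.8% ± 0.0621 against 23.4% ± 0.341 (n = 2). The longer-held regions also had stronger day 3 KLF4 peaks. Over whole regions, the 760 strongest regions of day 3 alone had 52.5% ± 8.16 at day 3, near the 55.9% ± 7.53 of all longer-held ones (n = 3). At day 6 the same groups had 10.6% and 33.5%, and at day 9 31.5% and 86.4%. The part of KLF4 strength in the contrast was not tested. The dependence on stage passed the test (F = 36.8, exact permutation over the 12 libraries, two-sided, p = 5.05e-05, adjusted 0.000354). Without the day 6 H3K27ac library of EA-3702 the F was 403 (exact permutation p = 0.000346).

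Whether the sets moved differently between day 3 and day 6 was less settled. The difference changed by −8.03 points on average (exact permutation p = 0.3, adjusted 0.389), by −21.5 points within batch EA-3702 and by −1.28 points within batch DG-3458. In DG-3458 the share changed by −28.6 points for the regions of day 3 alone, from 37.2% to 8.64%. For the longer-held ones it changed by −27.3 points, from 52.1% to 24.8%. With regions chosen without the day 3 KLF4 library of EA-3702, the change was 11.2 points, in the other direction. The sign was kept under 27 alternatives and turned under 1. The change was −18.7 points from the top 50% of each KLF4 list and −9.02 with equally long H3K27ac lists (exact permutation p = 0.1 each, the smallest possible). It was −2.96 points with H3K27ac q-values of at most 0.01 and −4.2 with 200 bp KLF4 peaks.

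**Figure D3:**
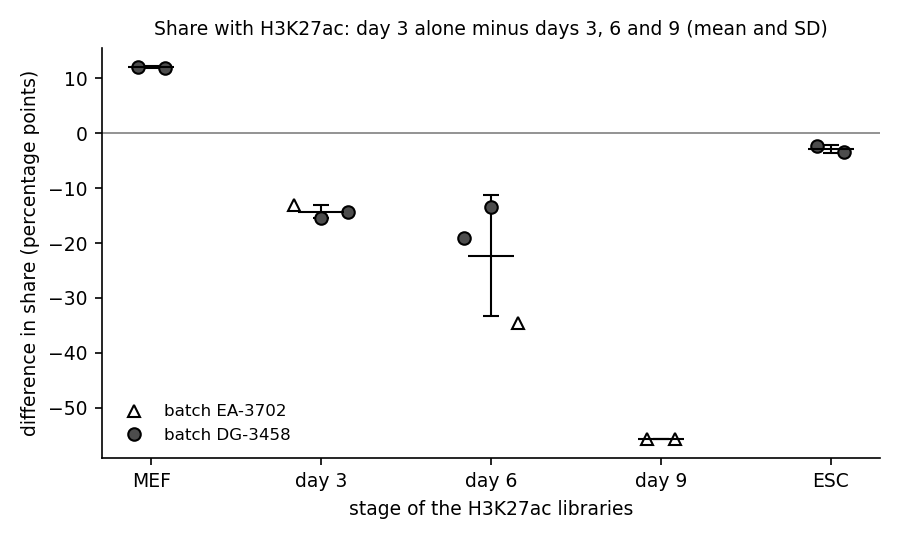
The vertical axis is the share of regions of day 3 alone with H3K27ac minus that of regions bound from day 3 to day 9, in percentage points, with 1 point per library, the mean and the SD. The MEF libraries lie at 12.1 and 11.9 points and the day 9 libraries at −55.7 points, while the day 6 libraries of the 2 batches lie apart.

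Regions acetylated in the fibroblasts carried H3K27ac more often at each later stage. Both MEF libraries covered 819 of the 2279 regions (35.9%, beside 29.8% of all merged regions), and neither covered 1319. Of the 819, H3K27ac was on 66.3% ± 9.10 (SD, n = 3) in the day 3 libraries, 22.8% ± 5.92 (n = 3) in those of day 6, 45.3% ± 2.59 (n = 2) in those of day 9 and 26.5% ± 0.173 (n = 2) in those of ESCs. Of the 1319 without it in MEFs, the shares were 26.4% ± 7.37, 4.5% ± 3.39, 21.5% ± 0.643 and 6.86% ± 0.482. The library values of the 2 subsets did not overlap at any of the 4 stages. Regions held from day 3 to day 9 without H3K27ac in MEFs, 1170 in number, had H3K27ac on 84.5% at day 9, against 21.5% for the regions of day 3 alone. The same order was seen in the longer-held regions. The longer-held regions acetylated in both MEF libraries, 407 in number, had shares of 81.7%, 57.9%, 92.1% and 33.8% from day 3 to ESC, against 46.4%, 25.2%, 84.5% and 11.8% for those without.

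**Figure D4:**
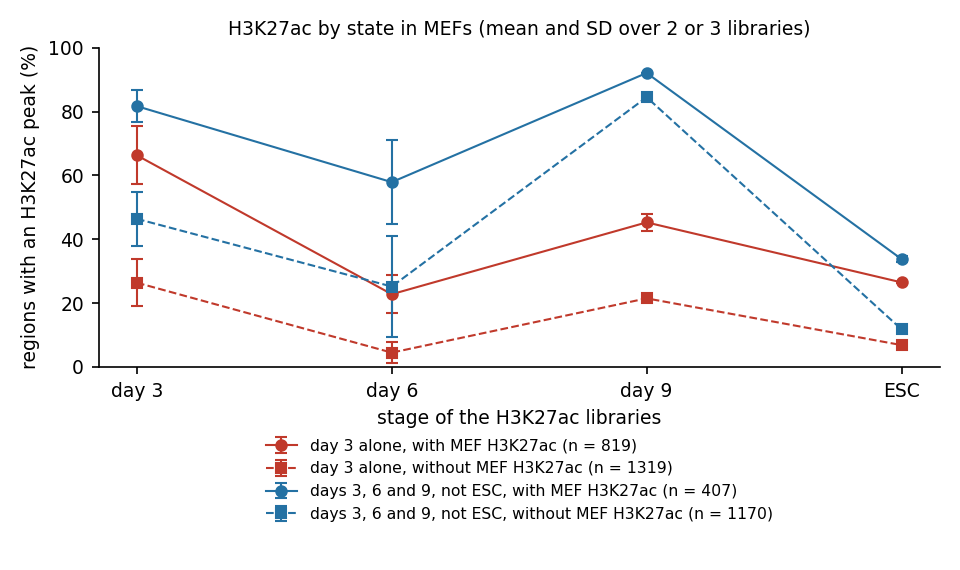
The vertical axis is the percent of regions with an H3K27ac peak at day 3, day 6, day 9 and in ESCs, as mean and SD over 2 or 3 libraries, split by H3K27ac in both or in neither MEF library. Regions of day 3 alone lie under those held to day 9 at day 3, day 6 and day 9 in both subsets, and most widely at day 9 without MEF acetylation (21.5% against 84.5%).

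Across the libraries of a stage, 635 regions (27.9%) had H3K27ac in all 3 day 3 libraries, beside 22.7% of all merged regions. All 3 day 6 libraries covered 132 (5.79%, beside 14.3%), both day 9 libraries 571 (25.1%, beside 41.1%) and both ESC libraries 272 (11.9%, beside 36.2%). No H3K27ac in any of the 12 libraries was found for 656 regions (28.8%, beside 32.4%), so this largest single pattern was about as common as among all merged regions. H3K27ac in all 12 libraries was found for 90 (3.95%, beside 11.5%).

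Patterns in which the mark ended by day 6 stood above the background. H3K27ac in both MEF and all 3 day 3 libraries and in none of day 6, day 9 and ESC marked 92 regions (4.04%, beside 0.576%), which is 92 of the 416 merged regions with that pattern. H3K27ac in the 3 day 3 libraries and none of the other 9 marked 50 (2.19%, beside 0.274%), and H3K27ac in the 2 MEF libraries and none of the 10 later marked 118 (5.18%, beside 2.25%). Among the 1661 regions held from day 3 to day 9 these patterns marked 2, 1 and 9 regions. A pattern that skipped day 6, with H3K27ac in MEFs, at day 3 and at day 9, marked 30 (1.32%, beside 0.424%), and 21 of the longer-held regions (1.26%). Libraries of a stage disagreed for 1104 of the 2279 regions, which therefore have no settled pattern. A settled pattern was found for 1175 of them (51.6%) and for 632 of the 1661 longer-held regions (38.0%), which bears on the counts compared above. This share was not counted for all merged regions.

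**Figure D5:**
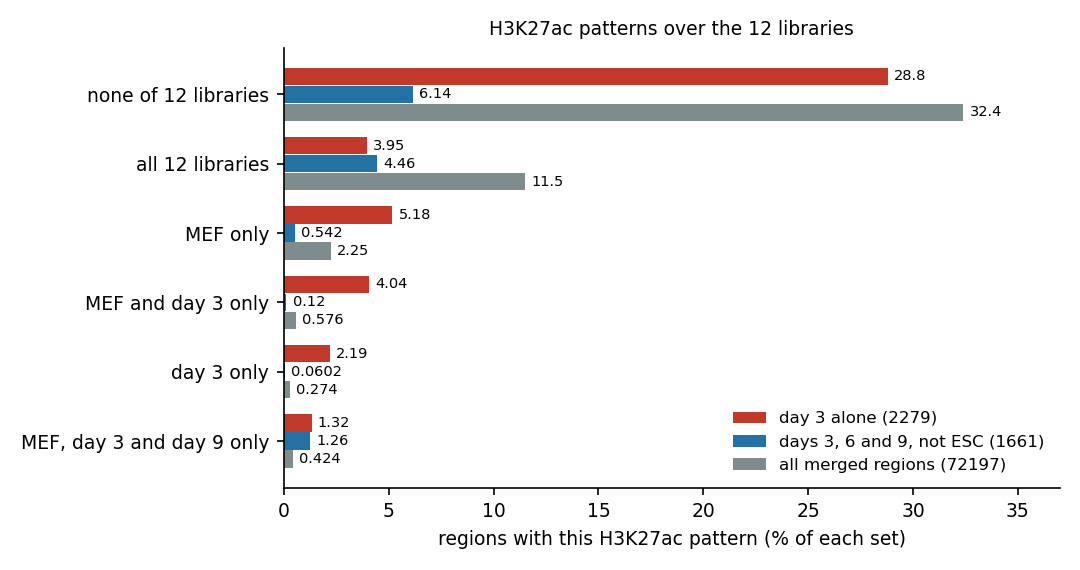
The horizontal axis is the percent of each set of regions that shows a pattern of H3K27ac over the 12 libraries, for regions of day 3 alone, regions bound from day 3 to day 9 and all merged regions. The bars for MEF and day 3 only (4.04%) and for day 3 only (2.19%) of the regions of day 3 alone stand above those of all merged regions (0.576% and 0.274%).

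Named examples of the pattern of MEF and day 3 only, by KLF4 rank, were the regions in Rhobtb1, near Gm32137, near Bmncr, near Atp8b4 and in Cmklr1. The region 17462 bp from the noncoding RNA gene Bmncr and 29275 bp from Prelp, a matrix proteoglycan gene, had −log10 p of 27.2 and 8.19. Cmklr1, which encodes the chemerin receptor, held one with 19.3 and 9.74 (chr5:113629118-113629605). The region 10031 bp from Atp8b4, a phospholipid flippase gene, had 31.6 and 7.66 and its nearest later KLF4 peak 157495 bp away. Acetylated at day 3 alone were the regions in Sybu, in Atg7, an autophagy enzyme gene, near Gm47125, in Srrm1, a splicing factor gene, and near Gm12726. The region in Atg7 lay 717 bp from a later KLF4 peak, and that near Gm47125 lay 94548 bp from one.

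The 5 best ranked regions acetylated in all 12 libraries were in Fnbp1, a gene of membrane bending in endocytosis, in Hmgxb4, in Tnrc18, at the microRNA gene Mir688, 782 bp from Atp5g2, and in Rere, a transcriptional co-regulator gene. The region in Fnbp1 lay 247 bp from a later KLF4 peak and that at Mir688 614 bp, whereas that in Hmgxb4 lay 19430 bp away.

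In ESCs with 2i, which the choice did not use, KLF4 was rare at these regions. A peak overlapped 72 (3.16%) in the library of batch EA-3702 and 94 (4.12%) in that of DG-3012, a mean of 3.64% ± 0.683 (SD, n = 2). Both libraries covered 26 regions (1.14%, beside 19.2% of all merged regions), and 1 or both covered 140 (6.14%, beside 35.6%). Regions held from day 3 to day 9 and regions of day 9 alone, which were also chosen for having no peak in serum ESCs, had 2.29% and 1.82% in both libraries. Regions bound in all 8 libraries had 73.7%. No test was made with 2 libraries of 1 group.

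The regions with KLF4 in both 2i libraries were led by one in Smarcd3, a subunit gene of the BAF remodelling complex, with day 3 −log10 p of 12.6 and 7.39. One in Robo1, a gene of the Slit receptors, had 6.89 and 7.40, with H3K27ac in all 12 libraries. One in Obsl1, a cytoskeletal adaptor gene, was also acetylated in all 12. Those in Cyp2s1, a cytochrome P450 gene, and in Gm32630, 6668 bp from the calmodulin gene Calm3, had H3K27ac in 2 day 3 libraries alone and in no library, respectively.

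The regions lay mainly away from gene ends. A protein-coding gene end, either the start or the finish, was within 2.5 kb of 313 of them (13.7%, Wilson 95% interval 12.4 to 15.2). This share was 14.0% for regions held from day 3 to day 9, 12.2% for those of day 9 alone, 54.0% for those bound in all 8 libraries and 26.7% for all merged regions. Inside a protein-coding gene lay 1328 (58.3%), close to the 58.7% of all merged regions. The 313 near a gene end had H3K27ac more often than the others, with 61.3% ± 0.452 (SD, n = 2) in MEFs, 56.4% ± 6.11 (n = 3) at day 3, 32.9% ± 6.69 (n = 3) at day 6, 55.0% ± 0.0 (n = 2) at day 9 and 42.2% ± 0.452 (n = 2) in ESCs. The others had 35.5% ± 0.036, 39.3% ± 8.56, 7.71% ± 4.07, 26.9% ± 0.647 and 10.1% ± 0.108 at the same stages, so day 6 had the lowest share in both. All merged regions near a gene end had means of 65.3%, 56.3%, 48.4%, 71.8% and 69.1% over the same 5 stages in order, above those of the regions of day 3 alone near gene ends except for day 3 (56.3% against 56.4%).

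By gene, 1549 of 21631 protein-coding genes (7.16%) had a region of day 3 alone within the gene or 10 kb of either end. Of these, 1306 had 1, 202 had 2 and 41 had 3 or more. Fndc3b, a gene of a fibronectin type III domain protein, had 6 over 295 kb, among 28 merged KLF4 regions in all, and none of the regions held from day 3 to day 9. With 4 each followed Bach2, a B cell transcription repressor gene, Cacna2d3, a calcium channel subunit gene, Dlc1, Mbnl2, a splicing regulator gene, Ptprm, a receptor tyrosine phosphatase gene, Rap1gap2, Slit3, a guidance ligand gene, and the overlapping genes Schip1 and Iqschfp, which share their regions. These genes are long, from 156 kb for Mbnl2 to 818 kb for Cacna2d3, and held 13 to 36 merged KLF4 regions each.

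Of the 12 gene lists, the TGF-beta list had the most regions. Of its 15 genes, 5 had a region nearby, beside 7.16% of all protein-coding genes, and there were 10 such regions among the 105 merged KLF4 regions at these genes (9.52%, beside 3.16% of all merged regions). Regions held from day 3 to day 9 lay at 4 of the 15 genes, 5 regions in all, beside 5.73% of all protein-coding genes. The genes of this list are long, with a median of 69.0 kb against 17.3 kb for all. Among them were the receptor genes Tgfbr1 and Tgfbr3 with 2 regions each, the signal transducer Smad3 with 3 and the inhibitory Smad7 with 2. The best ranked, in Tgfbr3 (chr5:107135329-107135669), had −log10 p of 11.2 and 5.17 and no H3K27ac in any of the 12 libraries. At Smad3 the 3 regions differed: 1 had no H3K27ac in any library, 1 had it in 2 of 2 MEF, 2 of 3 day 3 and 1 of 2 day 9 libraries, and 1 had it in all 12.

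Fibroblast genes were mixed against the backgrounds of 7.16% of all protein-coding genes and 3.16% of all merged regions. Of 20 mesenchymal and fibroblast genes, 3 had a region: Twist1, a mesenchymal transcription factor gene, Runx1 and Cdh2, the N-cadherin gene. The 3 were 2.80% of the 107 merged regions at these genes. The region at Twist1 (chr12:33957413-33957928) had −log10 p of 3.18 and 5.17 and H3K27ac in all 12 libraries, while those at Runx1 and Cdh2 had none. Of 11 collagen genes, 4 had one, with Col4a1 and Col4a2 sharing a region, and the 3 regions were 4.76% of the 63 merged ones there. That in Col5a2 had 11.2 and 5.89 and was acetylated in the MEF libraries alone, and that 9395 bp from Col6a1 had 6.89 and 11.6 and H3K27ac in 1 day 3 library. The one shared by Col4a1 and Col4a2 had 4.91 and 2.66. Its H3K27ac was in 2 of 3 day 3, 1 of 3 day 6 and 2 of 2 day 9 libraries and in none of MEF and ESC. Of 11 contractile genes only Myh9, the nonmuscle myosin heavy chain gene, had regions. Of its 2, the one with the better mean rank (chr15:77810443-77810842) had 19.1 and 5.41. Its H3K27ac was in 2 of 2 MEF, 3 of 3 day 3, none of 3 day 6, 2 of 2 day 9 and none of 2 ESC libraries. The other had 4.79 and 8.44, with H3K27ac in the same numbers of libraries except for 2 of 2 in ESCs.

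Among transcription factor genes, the KLF and SP list had regions at 3 of 12 genes, 4 regions of 67 merged ones (5.97%). Klf6 had 2, one 955 bp from the gene with −log10 p of 17.8 and 3.96 and one inside it with 9.64 and 3.23, and both were acetylated in 2 of 2 MEF, 3 of 3 day 3, none of 3 day 6 and 2 of 2 day 9 libraries, the inner one also in 1 ESC library. Those in Klf7 and Klf13 had no H3K27ac in any library. Of 11 AP-1 genes, Fosl2 alone had one, with 9.82 and 3.84, acetylated in 2 of 2 MEF, 3 of 3 day 3 and 1 of 2 day 9 libraries. It was 1 of the 51 merged regions at these genes (1.96%, beside 3.16% overall). Of 13 genes of ERK feedback and growth factor response, 3 had one: Spry1 and Dusp4, both brakes on ERK signalling, and the immediate early gene Egr1. The 3 regions were 4.00% of the 75 merged ones there, beside 3.16% overall. The region 2268 bp from Dusp4 had 5.86 and 2.13 and no H3K27ac in MEFs, with H3K27ac in 3 of 3 day 3, 3 of 3 day 6 and 2 of 2 day 9 libraries. Those at Egr1 and in Spry1 had H3K27ac in 2 of 2 MEF and 2 of 2 day 9 libraries, and also in ESCs, in 2 of 2 libraries at Egr1 and 1 of 2 at Spry1. At day 3 they had it in 3 of 3 libraries (Egr1) and 1 of 3 (Spry1), and at day 6 in 1 of 3 each.

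Several lists had few regions or none. None of 18 pluripotency genes, 20 epidermal genes and 10 genes of senescence and p53 had one, though these genes held 109, 51 and 42 merged KLF4 regions. At 3.16% of merged regions few would fall on lists of this size, and pluripotency and senescence genes also had none of the regions held from day 3 to day 9 or of day 9 alone. Of 19 epithelial junction genes, 2 had one, 1.42% of the 141 merged regions there. One of them was Krt8, a simple epithelial keratin gene that also stood as 1 of 12 on the extra-embryonic list. The region 2780 bp from Krt8 had 8.41 and 7.39, H3K27ac in 2 of 2 MEF, 1 of 3 day 3 and 1 of 2 day 9 libraries, and a KLF4 peak in 1 of the 2i libraries.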

How the data were processed

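Per the labels' protocols, KLF4 and H3K27ac were immunoprecipitated from crosslinked, sonicated chromatin and sequenced as single-end reads. The submitters' processing notes name mm10, cutadapt 1.8.1, Bowtie2 2.2.5, MACS2 2.1.1 and deepTools 2.3.6 without their roles. The authors deposited 1 peak list per library, each peak with a score, a fold enrichment (ratio), a −log10 p and a −log10 q; these are the authors' values and were used only within a list. The score is the whole part of 10 times the −log10 p, so ranking used the score with ties settled by −log10 p. For 13 input libraries of 35 samples no list was analysed here. Regions were merged at 1 bp overlap on chromosomes 1 to 19 and X with Python 3.11.15, pandas 2.3.3 and NumPy 2.4.6. The share of regions with an H3K27ac peak, 1 value per library, was tested by exact permutation over libraries and adjusted by Benjamini-Hochberg over 7 tests; intervals are from SciPy 1.17.1 and cover counting error only. The overlap and permutation steps, but not the adjustment, were tested on simulated data.

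The set of regions and the gene lists were chosen with earlier results of these data known. The text names the 15 best ranked regions, up to 3 per gene list, up to 5 per H3K27ac or 2i pattern and the 10 genes with most regions; the promoter stretches were chosen after the files were seen, by the rule given with them. Other regions at listed genes are given where a list's count is broken down. Replicate numbers did not pair the libraries (correlations of deviations −0.005 to 0.009). Gene positions are those of RefSeq, GRCm38.p6. Some regions that the naming rule covers are not reported here.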

Additional observations from a re-analysis of the deposited data

Results flagged for a closer look

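The difference in H3K27ac share between regions of day 3 alone and regions held from day 3 to day 9 was picked out because it differed between stages by its own test (F = 36.8, exact permutation over 12 libraries, p = 5.05e-05). The mean difference was 12 points in MEFs, −14.3, −22.3 and −55.7 points at days 3, 6 and 9 in that order, and −2.91 points in ESCs. With equally long H3K27ac lists it was 7.17 points in MEFs and, with the sign turned, 1.07 points in ESCs. With 200 bp about each midpoint the shares were 31.9% against 34.2% at day 3 and 8.63% against 17.3% at day 6, a smaller gap than over whole regions. The sets also differed in the strength of their day 3 KLF4 peaks, and the part of this in the contrast was not tested. MEF and ESC libraries come from batch DG-3458 and day 9 libraries from EA-3702, while both batches hold days 3 and 6. Within DG-3458 the difference was 12 points in MEFs, −14.9 and −16.2 at days 3 and 6, and −2.91 in ESCs. Within EA-3702 it was −13.1, −34.6 and −55.7 from day 3 to day 9. With labels permuted within batches the F was 20.9 (exact permutation p = 0.0037). Groups hold at most 3 libraries, too few for a check of outliers within a group. Without the day 6 library of EA-3702 the F was 403, without replicate 2 of day 6 in DG-3458 it was 62.9, and without either day 9 library it was 21.6.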

How the results depend on the processing

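Both tests across stages kept their side of the threshold under every alternative run, 33 for the regions of day 3 alone (exact permutation p of 0.000462 to 0.00606) and 36 for the contrast with regions held to day 9 (7.22e-06, the smallest that permuting the 12 libraries can give, to 0.00868). Day 3 minus MEF (2.61 points) had no settled direction. It was −2.80 with 200 bp KLF4 peaks, −1.95 with H3K27ac q-values of at most 0.01, −8.89 with an overlap of 50% of the shorter interval and −3.96 with 200 bp about each midpoint. Within batches, with the replicate block, and with the replicate block after exchanging the day 6 numbers (chosen after seeing the data), it was −1.80. With 1 library left out it ran from −5.43 to 6.34. Without the day 3 KLF4 library of EA-3702, day 6 minus day 3 was −9.35 in place of −30.5. The change of the contrast from day 3 to day 6 ran from −12.5 to 11.2 with 1 library left out, and was negative in every alternative that kept all libraries. With 200 bp about each midpoint the 2 sets had H3K27ac on 31.9% and 34.2% at day 3, and on 8.63% and 17.3% at day 6, closer than over whole regions. The number of regions was 1114 with KLF4 q-values of at most 0.01 and 1294 with equally long lists, and 2307 to 10336 with 1 library left out. It was 10216 without the day 3 KLF4 library of EA-3702 and 10336 without that of DG-4040. The 2i share (3.64%) was 7.88% from the top 50% of each list, 6.73% at that q-value for all KLF4 lists and 1.08% at that q-value in 2i. Gene ends lay within 1 kb for 8.56% and within 10 kb for 29.8%. Choosing from the top 50% of each list gave 1567 regions, of which 541 were among the 2279. Depth is unknown, and a region missing from a later list may hold signal below the calling limit. The cause of these shifts was not tested.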

Other observations

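Regions of day 3 alone were spread over all chromosomes, from 2.46% of the merged regions on chromosome X to 4.02% on chromosome 3. Another such region lay within 10 kb of 210 of them (9.21%) and within 1 kb of 47 (2.06%). For regions held from day 3 to day 9 the same shares were 6.62% and 1.08%, and for those of day 9 alone 5.53% and 1.62%, but both sets are smaller. The best ranked region, near Gm14812, lay 146 bp from another, and that near Gm32137 lay 332 bp from another.

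Day 3 H3K27ac ran with the strength of KLF4 binding among these regions, as a description. The strongest 760 by mean rank had it in 52.5% ± 8.16 (SD, n = 3) at day 3, the middle 760 in 38.2% ± 8.79 and the weakest 759 in 34.2% ± 7.85, with the order the same in the lowest and in the highest library. In the MEF libraries the same groups had 41.8%, 36.2% and 39.0%, and in ESCs 12.6%, 12.7% and 18.3%. No test was made of this order.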
